A study of Mus musculus with 56 samples.

Results

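The 10 genes described here belong to the insulin pathway and its FOXO-regulated arm, and were followed in mouse visceral adipose tissue (VAT) through the day, under feeding restricted to the light or to the dark phase. They were chosen by symbol, as the rows of the deposited table whose Ensembl identifiers map to Insr, Irs1, Irs2, Pik3r1, Akt2, Foxo1, Foxo3, Sesn1, Ddit4 and Trib3. All 10 of 10 were found among 25939 genes. The tissue came from female C57BL/6J mice, bought at 7 weeks of age, kept for 7 days on freely available chow in a cycle of 12 h light and 12 h dark, and then fed for 7 days in the light phase only (daytime-restricted feeding, DRF) or in the dark phase only (nighttime-restricted feeding, NRF). At 9 weeks of age, 4 mice per group were sampled at Zeitgeber time (ZT, hours after lights on) 0, 4, 8, 12, 16, 20 and 24, which gave 14 groups and 56 libraries of polyA RNA. NRF, in which mice eat in their active phase, was the reference, and no freely fed group was analysed here. Both regimens restrict the time of food, so a difference between them is one between 2 feeding times.

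Insulin binds the receptor encoded by Insr, which phosphorylates the adaptors IRS1 and IRS2. These recruit phosphoinositide 3-kinase, whose main regulatory subunit is the product of Pik3r1, and the lipid it makes activates AKT2, the AKT form that carries most of the insulin signal to glucose uptake in fat cells. AKT phosphorylates FOXO1 and FOXO3 and keeps them out of the nucleus, so that FOXO-driven transcription, of Irs2 and Sesn1 among others, is a feature of fasting. SESN1, DDIT4 and TRIB3 act as brakes on the pathway: the first pair restrain the growth kinase complex mTORC1, and TRIB3 is a pseudokinase that can bind AKT.

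The libraries held 33.7 to 45.7 megareads recovered on genes, with a median of 38.1 megareads. Levels are given in CPM, the count of a gene per megaread of the library size that is built into the deposited values, and differences as differences of mean log2(CPM + 1). That size was 0.840 to 1.28 times the reads recovered in the library (0.840 to 0.928 at DRF ZT4, 1.03 to 1.16 at NRF ZT4 and ZT8), so CPM is not a share of the reads. When reads were instead scaled by their total over all genes, a setting added after the data were seen and called total scaling here, the median difference of genes with a mean log2(CPM + 1) of at least 1 moved from -0.01 to -0.25 at ZT4 (DRF minus NRF) and from -0.0026 to -0.11 in the feeding contrast under NRF. Calls that this setting ends are named beside the results. The tissue label was checked on 6 adipocyte markers (Adipoq, Fabp4, Plin1, Cidec, Lep and Pparg), which together stood between 15070 and 29642 CPM in 54 libraries. The other 2, DRF ZT8 replicate 1 and DRF ZT0 replicate 4, stood at 8477 and 12850 CPM. In the same pair, the 6 measured of 8 listed markers of uterine or oviduct epithelium summed to 549 and 824 CPM, against 12.5 to 68.3 CPM elsewhere. Most of that sum was Epcam, Cdh1, Krt8 and Krt18, which other epithelia share, while the oviduct gene Ovgp1 stood at 0.88 and 1.20 CPM and Msx1 at 145 and 18.9 CPM, and the tissue they come from was not tested. The second principal component placed the pair 7.21 and 4.84 median absolute deviations from the median. Among the other 54 libraries, liver markers summed to 12.9 to 1509 CPM (median 30.3) and skeletal muscle markers to 5.03 to 406 CPM (median 41.1), with the highest of both in NRF libraries. The part of these other tissues in the results was not tested. Results without this pair are given beside the calls that changed. In whole tissue, fewer cells of a type and less RNA per cell cannot be told apart.

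The upstream sequences of Irs1 and Irs2 are shown because these adaptor genes share a pair of motifs, and a stretch of Sesn1 because it alone held the FOXO consensus. Windows of 300 bases, from 250 before to 50 after each annotated start, were found for 9 of the 10 genes in RefSeq (GRCm38.p6). Searched on both strands, the FOXO consensus GTAAACA was in the window of Sesn1 and in 3.65% of all 32851 windows. The insulin response element core CAAAACA (6.28% of windows) and the E-box CACGTG (7.15%) were each in the windows of Irs1 and Irs2. A cyclic AMP response element TGACGTCA (1.79%) and a full glucocorticoid response element (2 inverted AGAACA arms around 3 free bases, 0.00913%) were in none of the members' windows. Capitals mark matches to the first 3 motifs, read 5′ to 3′ on the strand of the gene. The Irs1 sequence is chr1:82291440-82291689 on the minus strand, the Irs2 sequence chr8:11008930-11009179 on the minus strand, and the Sesn1 sequence chr10:41810585-41810614 on the plus strand.
Irs1: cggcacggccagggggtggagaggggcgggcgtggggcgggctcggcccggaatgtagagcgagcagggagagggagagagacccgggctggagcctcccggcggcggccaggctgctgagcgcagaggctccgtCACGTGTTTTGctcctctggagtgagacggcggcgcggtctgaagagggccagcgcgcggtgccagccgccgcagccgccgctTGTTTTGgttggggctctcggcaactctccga
Irs2: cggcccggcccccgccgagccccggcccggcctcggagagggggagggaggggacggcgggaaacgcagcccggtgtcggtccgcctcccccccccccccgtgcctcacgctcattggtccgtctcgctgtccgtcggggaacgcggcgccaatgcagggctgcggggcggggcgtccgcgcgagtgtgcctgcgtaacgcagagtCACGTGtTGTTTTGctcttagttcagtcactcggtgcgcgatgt
Sesn1: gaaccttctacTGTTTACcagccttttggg
In Irs2, the E-box lies 44 bases and the insulin response element core 37 bases before the start, with 1 base between them. In Irs1, an E-box at 115 bases before the start overlaps a core at 111, and a further core lies at 32. A first base of each motif within 7 bases of the other, a distance set after these sequences were seen, occurred in 9 of 32851 windows (0.0274%), those of Irs1 and Irs2 included. The Sesn1 match begins at base 23 after the start of the transcript. Distances are from the RefSeq start, which lies outside the GENCODE gene spans given below for Irs1 and Irs2 and inside that of Sesn1, so they depend on the start taken. A match of letters is not a bound site.

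All 10 genes were detected in every library, from 140 reads at the lowest (Trib3) to 29442 at the highest (Akt2). Per kilobase of exon, the mean over 56 libraries was highest for Akt2 at 61.9 CPM per kb, followed by Pik3r1 at 33.6, Ddit4 at 19.6, Sesn1 at 12.0, Insr at 11.3, Foxo1 at 8.07, Irs2 at 7.02, Irs1 at 4.61, Foxo3 at 4.33 and Trib3 at 3.60 CPM per kb. The ranges over libraries of neighbours in this order overlapped in each case. Irs2, Ddit4 and Akt2 varied differently through the day, as the plot of levels by time shows.

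**Figure D1:**
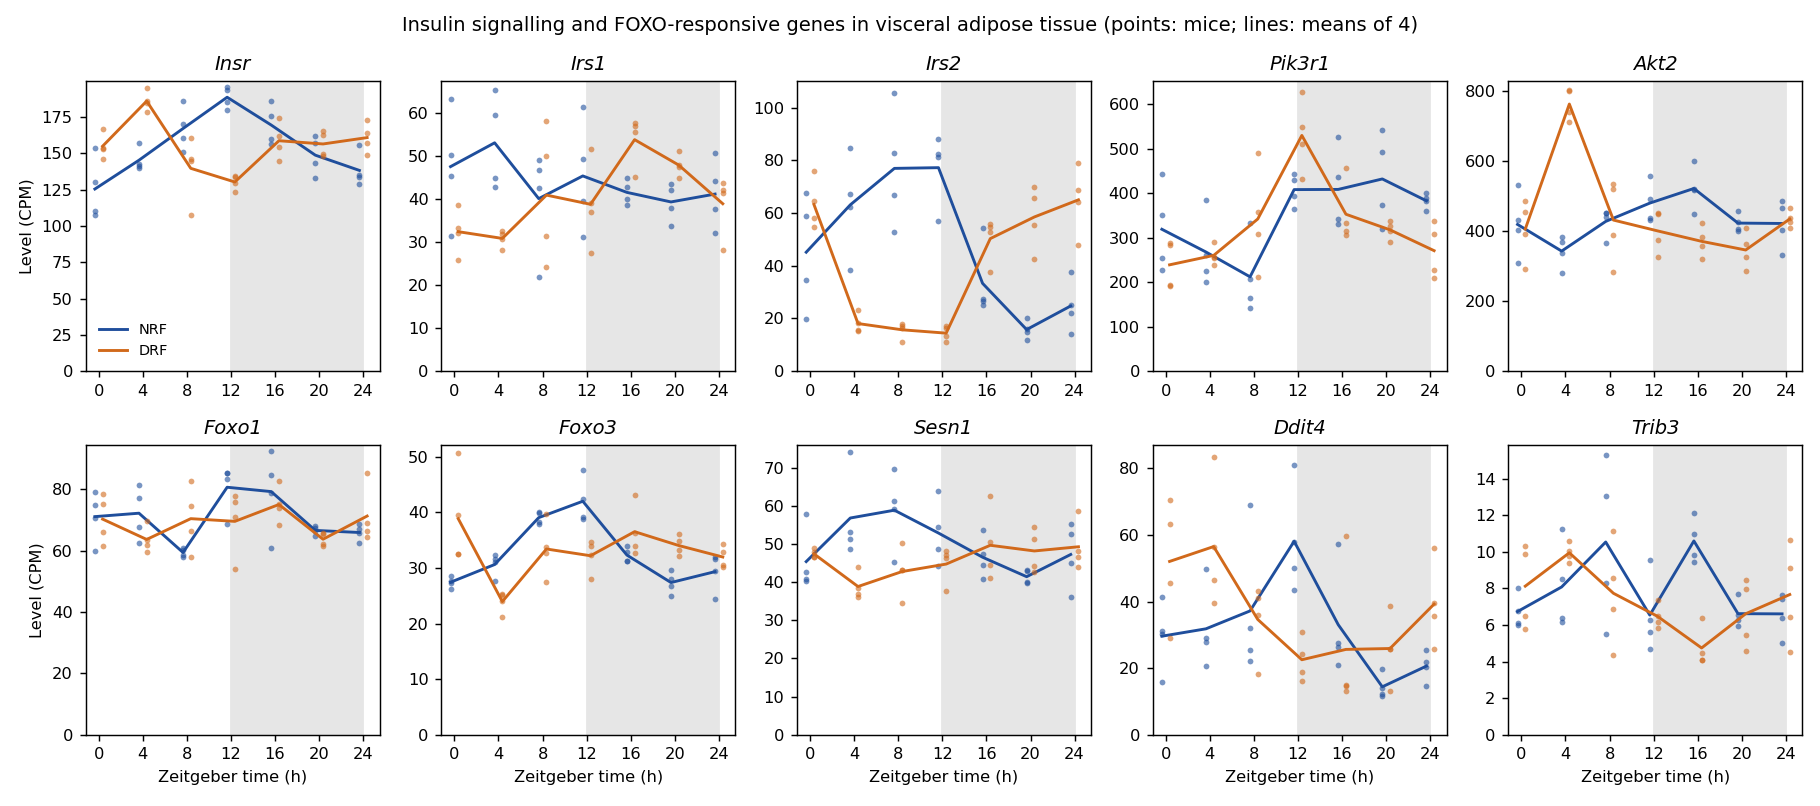
Level of each of the 10 genes (CPM, axes from 0) by Zeitgeber time (h). Points are mice, lines join the means of 4 mice, blue is NRF, orange is DRF, and grey marks the dark phase. Irs2 was low in the dark phase under NRF (mean 15.8 CPM at ZT20) and low in the light phase under DRF (mean 14.4 CPM at ZT12), and Akt2 stood highest at ZT4 under DRF (mean 762 CPM).

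Among the 3 members that are the receptor or its adaptors, Irs2 had the largest feeding contrasts, and it was lower in the phase with food under both regimens. Irs2 (ENSMUSG00000038894, chromosome 8, 10984681 to 11008458, minus strand, GRCm38) encodes the adaptor that FOXO factors induce and insulin lowers in several tissues. Under NRF, its level was 66.9, 82.7, 52.7 and 105 CPM at ZT8 and 57.1, 81.1, 88.1 and 82.5 CPM at ZT12. It was 15.0, 11.8, 20.2 and 16.1 CPM at ZT20, after the start of the dark-phase feeding, and these groups did not overlap. Under DRF, it was 18.2, 23.2, 15.5 and 15.2 CPM at ZT4, 11.2, 17.3, 16.5 and 17.7 CPM at ZT8, and 11.03, 17.1, 16.3 and 13.3 CPM at ZT12. It was 55.6, 69.9, 42.6 and 65.8 CPM at ZT20 and 79.0, 68.6, 64.3 and 48.0 CPM at ZT24. All 12 DRF libraries of ZT4 to ZT12 lay below all 16 of the other time points. At each of 5 time points (ZT4, ZT8, ZT12, ZT20 and ZT24) the 4 DRF and 4 NRF mice did not overlap, and the sign of the difference turned between ZT12 and ZT20. At ZT0, the same clock time as ZT24 in other mice, the regimens overlapped and the difference did not pass (0.62 ± 0.28, limma adjusted p = 0.15, against 1.41 ± 0.28 and 4.5e-04 at ZT24). Without NRF ZT0 replicate 1 (67.6 CPM) it passed (0.86, limma adjusted p = 0.042), and over the single libraries left out it ran from 0.28 to 0.86. The NRF means were 45.1 ± 22.1 CPM at ZT0 and 24.7 ± 9.66 CPM at ZT24 (SD, n = 4).

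Between feeding times, the Irs2 contrast was tested in limma on log2(CPM + 1) with Benjamini-Hochberg adjustment over all genes, as were the contrasts that follow. Fed time points (ZT16 and ZT20 under NRF, ZT4 and ZT8 under DRF) were set against fasted ones (ZT4 and ZT8 under NRF, ZT16 and ZT20 under DRF), 8 mice each. The fed times were dark under NRF and light under DRF. A difference of this contrast between the regimens therefore equals light minus dark times summed over both. An unlike response to feeding and a shared effect of clock time cannot be told apart in it. Irs2 was 2.94-fold lower in fed than in fasted mice under NRF (log2 difference -1.56 ± 0.20 SE, limma adjusted p = 3.4e-08). It was 3.10-fold lower under DRF (-1.63 ± 0.20, limma adjusted p = 2.4e-08). Under DRF, the fed mice ranged from 11.2 to 23.2 CPM (median 16.9) and the fasted ones from 37.7 to 69.9 CPM (median 55.1), without overlap, which was so for 1 of 10 members and 2.88% of all genes. Under NRF, the fed range of 11.8 to 54.3 CPM overlapped the fasted range of 38.3 to 105 CPM through NRF ZT16 replicate 3, at 54.3 CPM against 25.1 to 27.5 CPM in the other 3 mice. The fitted peak of Irs2 lay at ZT8.22 ± 0.43 h (SE) under NRF and at ZT20.75 ± 0.38 h under DRF, a shift of 11.5 h (95% interval 10.3 to 12.6 h). The log2 amplitude of the fit was 1.08 ± 0.13 (NRF) and 1.25 ± 0.13 (DRF). Averaged over the day, Irs2 was also 1.37-fold lower under DRF (-0.45 ± 0.13, limma adjusted p = 0.0058). It was the only member whose mean level passed the test on all libraries and genes, 1 of 10 against 21.7% of all genes, and Sesn1 passed as well without any 1 of 6 libraries (limma adjusted p down to 0.029). By total scaling Insr, Sesn1 and Foxo1 were lower under DRF too, 4 of 10 against 27.6% of all genes.

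Irs1 (ENSMUSG00000055980, chromosome 1, 82233101 to 82291416, minus strand), the other main adaptor of fat cells, was lowest at DRF ZT4, with 30.6, 32.6, 31.8 and 28.2 CPM. At NRF ZT4, it was 59.4, 44.7, 42.6 and 65.2 CPM, above every DRF mouse of that time (log2 difference -0.74 ± 0.22, limma adjusted p = 0.013, and 0.063 without NRF ZT4 replicate 4). Under DRF, Irs1 was lower in fed mice (-0.54 ± 0.16, limma adjusted p = 0.010, and 0.086 and 0.12 without the mice numbered 3 or 4), from 24.1 to 58.1 CPM (median 31.6) against 44.9 to 57.5 CPM (median 49.5). Under NRF, its difference was -0.15 ± 0.16 (limma adjusted p = 0.57), and the test of the difference between regimens did not pass either. Irs1 thus varied by 1.74-fold between its highest and lowest DRF group means, against 4.51-fold for Irs2.

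Insr (ENSMUSG00000005534, chromosome 8, 3122061 to 3279617, minus strand), the receptor gene, peaked at the end of the light phase under NRF, with 195, 185, 194 and 180 CPM at ZT12. At DRF ZT12, it was 124, 130, 134 and 133 CPM, below all 4 NRF mice (-0.53 ± 0.09, limma adjusted p = 3.1e-05). At ZT4 the order was the opposite, with 186, 179, 195 and 184 CPM under DRF and 157, 141, 140 and 143 CPM under NRF (0.36 ± 0.09, limma adjusted p = 0.0037). By total scaling this call was lost (0.08 ± 0.08, limma adjusted p = 0.54), and the mice overlapped, at 155 to 168 reads per megaread under DRF and 145 to 163 under NRF. At ZT0 DRF was higher (0.32 ± 0.09, limma adjusted p = 0.017, and up to 0.11 without NRF ZT0 replicate 1 or 2 or DRF ZT0 replicate 2). At ZT24, the same clock time in other mice, its difference was 0.22 ± 0.09 (limma adjusted p = 0.11). At ZT8 Insr was lower under DRF (-0.27 ± 0.09, limma adjusted p = 0.034), a call lost without the pair of libraries that stood apart (-0.15, limma adjusted p = 0.25), and also without DRF ZT8 replicate 1 (107 CPM), NRF ZT8 replicate 3 or NRF ZT8 replicate 4 alone (up to 0.26). Its fed minus fasted differences were near 0 under both regimens (0.03 ± 0.06 in each). The contrast compares times on either side of the Insr peak under NRF, fitted at ZT12.24 ± 0.67 h, and misses a rhythm of that phase.

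Of the kinase genes, Akt2 showed a single high group. Akt2 (ENSMUSG00000004056, chromosome 7, 27591552 to 27640826, plus strand) was 709, 738, 798 and 801 CPM at DRF ZT4, and no other library exceeded 599.9 CPM. At NRF ZT4 it was 382, 369, 338 and 280 CPM, so that DRF was 2.23-fold higher (1.16 ± 0.16, limma adjusted p = 9.2e-07, and 0.89 ± 0.12 by total scaling). At DRF ZT0 it was 392, 484, 453 and 291 CPM, and at DRF ZT8 it was 283, 388, 534 and 519 CPM. The high level at ZT4 thus stood alone between time points whose mice overlapped those of NRF. Under DRF, Akt2 was higher in fed mice (0.66 ± 0.11, limma adjusted p = 1.8e-05), from 283 to 801 CPM (median 621) against 285 to 422 CPM (median 359.6). Under NRF its difference was 0.30 ± 0.11 (limma adjusted p = 0.0504) and passed the threshold in 6 of 8 alternatives, among them that without the pair that stood apart (0.30 ± 0.10, limma adjusted p = 0.017), though not by total scaling (0.18 ± 0.08, limma adjusted p = 0.12) or without the mice numbered 2, 3 or 4. At NRF ZT16 it was 448, 519, 599.9 and 516 CPM. The pseudogene Akt2-ps, at 6.50 to 21.1 CPM, followed Akt2 over the 14 group means (Pearson r = 0.96), and how reads shared by the 2 copies were counted is not given in the sources used here.

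Pik3r1 (ENSMUSG00000041417, chromosome 13, 101680563 to 101768217, minus strand), the p85-alpha subunit gene, differed between regimens in its fed minus fasted contrast. Under NRF it was higher in fed mice, from 320.2 to 542 CPM (median 405) against 143 to 384 CPM (median 216), by 0.85 ± 0.16 (limma adjusted p = 5.8e-05). Under DRF the fed mice ranged from 211 to 491 CPM (median 274) and the fasted ones from 291 to 456 CPM (median 321), a difference of -0.19 ± 0.16 (limma adjusted p = 0.49). The difference between the contrasts was -1.04 ± 0.23 (limma adjusted p = 0.0012, and 0.060 without the mice numbered 2). Under DRF, Pik3r1 was highest at ZT12, at the end of the feeding phase, with 549, 509, 432 and 627 CPM against 192, 287, 283 and 193 CPM at ZT0. Under NRF, it was 394, 442, 364 and 430 CPM at ZT12, when the feeding phase began. Its fitted peak lay at ZT18.07 ± 0.68 h under NRF and at ZT12.96 ± 0.86 h under DRF, 5.11 h earlier (95% interval 2.92 to 7.30 h), which holds neither 0 nor 12 h. The DRF contrast compares times on either side of the DRF peak, and misses a rhythm of that phase. At ZT8, DRF was above NRF (0.70 ± 0.23, limma adjusted p = 0.025, and up to 0.15 without NRF ZT8 replicate 2 or 4 or DRF ZT8 replicate 3 or 4), and the mice overlapped.

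**Figure D2:**
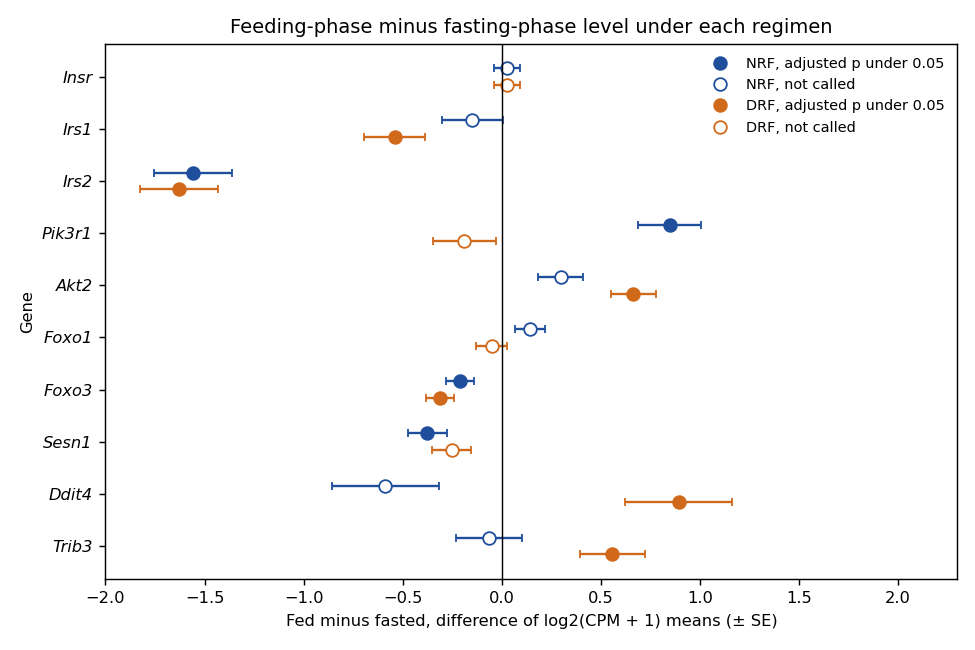
Fed minus fasted difference of mean log2(CPM + 1) for each gene under NRF (blue) and DRF (orange), with bars of 1 SE and 8 mice on each side. Filled points have an adjusted p under 0.05. Irs2 lies at -1.56 and -1.63, while Pik3r1 (0.85 and -0.19) and Ddit4 (-0.59 and 0.89) take opposite signs. The Pik3r1 difference under DRF and the Ddit4 difference under NRF did not pass.

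The FOXO genes themselves moved less than Irs2. Foxo3 (ENSMUSG00000048756, chromosome 10, 42181841 to 42276755, minus strand) was 38.0, 39.9, 38.2 and 40.1 CPM at NRF ZT8 and 47.7, 38.8, 39.1 and 42.4 CPM at NRF ZT12. It was 29.7, 25.1, 28.1 and 26.8 CPM at NRF ZT20, and these groups did not overlap. Fed mice had less Foxo3 under NRF (-0.21 ± 0.07, limma adjusted p = 0.024, 0.058 without NRF ZT20 replicate 2, and 0.073 to 0.12 without the mice numbered 2, 3 or 4, and -0.33 ± 0.10 by total scaling) and under DRF (-0.31 ± 0.07, limma adjusted p = 0.0010). Its lowest group was DRF ZT4, with 25.4, 25.21, 21.2 and 24.1 CPM, below NRF ZT4 at 31.0, 27.6, 31.6 and 32.3 CPM (-0.34 ± 0.10, limma adjusted p = 0.011, 0.063 without DRF ZT4 replicate 3, and -0.61 ± 0.14 by total scaling). At ZT0 the order was turned, with 32.6, 39.6, 32.6 and 50.7 CPM under DRF and 28.6, 27.6, 26.3 and 27.3 CPM under NRF (0.46 ± 0.10, limma adjusted p = 0.0014). The 50.7 CPM were those of replicate 4, a library that stood apart, and without the pair the difference was 0.33 ± 0.09 (limma adjusted p = 0.011). At ZT24, the same clock time in other mice, the difference was 0.13 ± 0.10 (limma adjusted p = 0.50). The fitted peak moved from ZT10.34 ± 0.66 h under NRF to ZT17.70 ± 0.96 h under DRF, 7.35 h later (95% interval 5.01 to 9.69 h).

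Foxo1 (ENSMUSG00000044167, chromosome 3, 52268336 to 52353221, plus strand), the FOXO factor most studied in fat cell differentiation, was the steadiest member. Its group means ran from 59.4 ± 1.34 CPM (SD, n = 4) at NRF ZT8 to 80.7 ± 8.07 CPM at NRF ZT12. It passed no test of rhythm, of feeding or of regimen on all libraries and all genes as scaled here, and its test of a difference in rhythm had a limma adjusted p of 0.77. Between DRF ZT4 and NRF ZT16 it passed among genes above the level filter (-0.30, limma adjusted p = 0.040) and with median-of-ratios scaling (-0.33, limma adjusted p = 0.037). By total scaling it passed there (-0.49 ± 0.12, limma adjusted p = 0.0053), at ZT4 (-0.44 ± 0.12, limma adjusted p = 0.0046) and in mean level (-0.13 ± 0.05, limma adjusted p = 0.0496). Its fed minus fasted difference under NRF passed without NRF ZT16 replicate 1 (limma adjusted p = 0.044) or without the mice numbered 1 (0.22 ± 0.07, limma adjusted p = 0.023). Without the pair of libraries that stood apart, Foxo1 was higher under DRF at ZT8 (0.32 ± 0.11, limma adjusted p = 0.039). Foxo3, not called at ZT8 with the pair (-0.23, limma adjusted p = 0.11), was then lower under DRF (-0.31 ± 0.09, limma adjusted p = 0.0098). The Foxo1 amplitude of 0.04 ± 0.05 under DRF leaves the DRF peak time undefined.

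Among the brakes on the pathway, Sesn1 followed Irs2 at a smaller scale. Sesn1 (ENSMUSG00000038332, chromosome 10, 41809935 to 41908424, plus strand) was 59.3, 61.3, 45.2 and 69.6 CPM at NRF ZT8 and 39.98, 39.8, 42.8 and 43.1 CPM at NRF ZT20. Fed mice had less Sesn1 under NRF (-0.38 ± 0.10, limma adjusted p = 0.0033, and 0.059 without the mice numbered 4), from 39.8 to 53.7 CPM against 45.2 to 74.0 CPM. Under DRF the difference was -0.25 ± 0.10 (limma adjusted p = 0.068), and it passed in 2 of 8 alternatives and without DRF ZT8 replicate 2 or DRF ZT16 replicate 3 alone (down to 0.036). At ZT4 the 4 DRF mice, at 37.0, 44.0, 36.1 and 38.4 CPM, lay below the 4 NRF mice, at 48.6, 51.4, 74.0 and 53.1 CPM (-0.52 ± 0.14, limma adjusted p = 0.0055, 0.058 without NRF ZT4 replicate 3, and -0.79 ± 0.16 by total scaling). At ZT8 it was lower under DRF by 0.45 ± 0.14 (limma adjusted p = 0.020), a call lost without the pair that stood apart (-0.35, limma adjusted p = 0.091), and also without NRF ZT8 replicate 2 or 4 or DRF ZT8 replicate 1 alone (up to 0.10). Its fitted peaks lay at ZT7.69 ± 0.78 h and ZT18.77 ± 1.24 h, 11.1 h apart (95% interval 8.15 to 14.02 h).

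Ddit4 (ENSMUSG00000020108, chromosome 10, 59949669 to 59951834, minus strand), which glucocorticoids and the stress factor ATF4 also induce, had feeding contrasts of opposite sign, of which only that under DRF passed on all libraries as scaled here. Under NRF it was 43.5, 58.0, 49.995 and 80.8 CPM at ZT12, before the dark-phase meal, and 12.2, 14.1, 11.6 and 19.8 CPM at ZT20. Under DRF it was 70.4, 63.2, 28.9 and 45.6 CPM at ZT0 and 56.5, 83.5, 46.4 and 39.6 CPM at ZT4, against 16.02, 18.9, 31.0 and 24.2 CPM at ZT12. At ZT12 the regimens did not overlap (-1.33 ± 0.38, limma adjusted p = 0.011, and 0.052 without DRF ZT12 replicate 1). The fed minus fasted difference was -0.59 ± 0.27 under NRF (limma adjusted p = 0.12, and 0.045 without NRF ZT16 replicate 3, at 57.3 CPM against 20.9 to 27.6 CPM in the other 3 mice, and 0.046 by total scaling) and 0.89 ± 0.27 under DRF (limma adjusted p = 0.015, 0.052 without DRF ZT20 replicate 1, and 0.20 and 0.093 without the mice numbered 2 or 4). The difference between the contrasts was 1.48 ± 0.38 (limma adjusted p = 0.0068, and 0.12 and 0.078 without the mice numbered 2 or 4). The spread was wide, with DRF ZT16 replicate 1 at 59.8 CPM against 13.2 to 14.8 CPM in the other 3 mice. The fitted peak lay at ZT9.84 ± 0.94 h under NRF and 6.67 h earlier under DRF (95% interval 4.16 to 9.19 h), at ZT3.16 ± 0.82 h. The feeding contrast leaves out ZT0, ZT12 and ZT24. At the end of the fast, Ddit4 was 58.1 ± 16.3 CPM at NRF ZT12, and 52.0 ± 18.6 and 39.2 ± 12.5 CPM at DRF ZT0 and ZT24 (SD, n = 4). DRF ZT0 and ZT24 together did not differ from NRF ZT12 (-0.38 ± 0.33, limma adjusted p = 0.63).

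Trib3 (ENSMUSG00000032715, chromosome 2, 152337422 to 152344032, minus strand) was the least abundant member, at 4.06 to 15.3 CPM. It was lowest at DRF ZT16, with 4.06, 6.36, 4.44 and 4.11 CPM, below NRF ZT16 at 12.1, 9.82, 9.44 and 10.96 CPM (-1.02 ± 0.23, limma adjusted p = 0.0026). Under DRF, fed mice had more Trib3 (0.56 ± 0.17, limma adjusted p = 0.013, and 0.10 without the mice numbered 3), from 4.36 to 11.1 CPM (median 9.57) against 4.06 to 8.46 CPM (median 5.02). The low end of the fed range was DRF ZT8 replicate 1. Under NRF the difference was -0.07 ± 0.17 (limma adjusted p = 0.84), and the difference of the regimens in this contrast passed without the pair that stood apart (0.73 ± 0.23, limma adjusted p = 0.024) and not with it (limma adjusted p = 0.074).

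Rhythmicity was tested on the 28 libraries of each regimen by merging the p-values of JTK_CYCLE and of the Lomb-Scargle periodogram, as MetaCycle does. Under NRF, 7 of 10 members were rhythmic (Insr, Irs2, Pik3r1, Akt2, Foxo3, Sesn1 and Ddit4), against 26.8% of all genes and 45.7% of the 14107 genes with a mean log2(CPM + 1) of at least 1, a level that all members reach. Under DRF, 6 of 10 were rhythmic (Irs1, Irs2, Pik3r1, Foxo3, Ddit4 and Trib3), against 15.0% and 26.5%. Irs2, Pik3r1, Foxo3 and Ddit4 passed under both, 4 of 10 against 9.29% of all genes. Of these, Foxo3 lost its DRF call on log2(CPM + 1) (rhythm test adjusted p = 0.34) and without ZT24 (0.088), and Ddit4 lost its NRF call without ZT24 (0.12). By total scaling Pik3r1 lost its NRF call (rhythm test adjusted p = 0.067), Foxo3 its DRF call (0.93), and Akt2 was called under DRF. The adjusted p of Irs2 was 9.6e-06 under NRF and 5.7e-06 under DRF. When each replicate number was left out in turn, Insr, Irs2 and Foxo3 kept their call under NRF, and Irs2 and Pik3r1 kept theirs under DRF. The other 8 calls were lost in at least 1 such subset of 21 libraries. By limma's F test of a cosine and a sine, Insr (adjusted p = 0.019) and Akt2 (adjusted p = 3.6e-04) were rhythmic under DRF as well, and Akt2 also passed the combined rhythm test there without the pair that stood apart (rhythm test adjusted p = 0.0038), which made 7 of 10 against 19.7% of all genes, so neither can be said to lose its rhythm there.

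The difference in rhythm itself, tested in limma as the interaction of regimen with the cosine and sine, passed for 9 of 10 members against 36.0% of all genes and 57.0% of those above the same level. Irs2 had the smallest adjusted p of the members (1.0e-14), and only Foxo1 did not pass. The call held without each replicate number for Insr, Irs2, Pik3r1, Akt2, Foxo3, Sesn1 and Ddit4, while Irs1 and Trib3 lost it in some subsets, Trib3 also without NRF ZT16 replicate 1 or 4 alone (limma adjusted p up to 0.056) and by total scaling (0.065). No member passed the limma test of a difference in amplitude, against 1.52% of all genes. At an unadjusted limma p under 0.05, 1 of 10 did, Insr, with the smaller amplitude under DRF, against 11.3% of all genes.

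**Figure D3:**
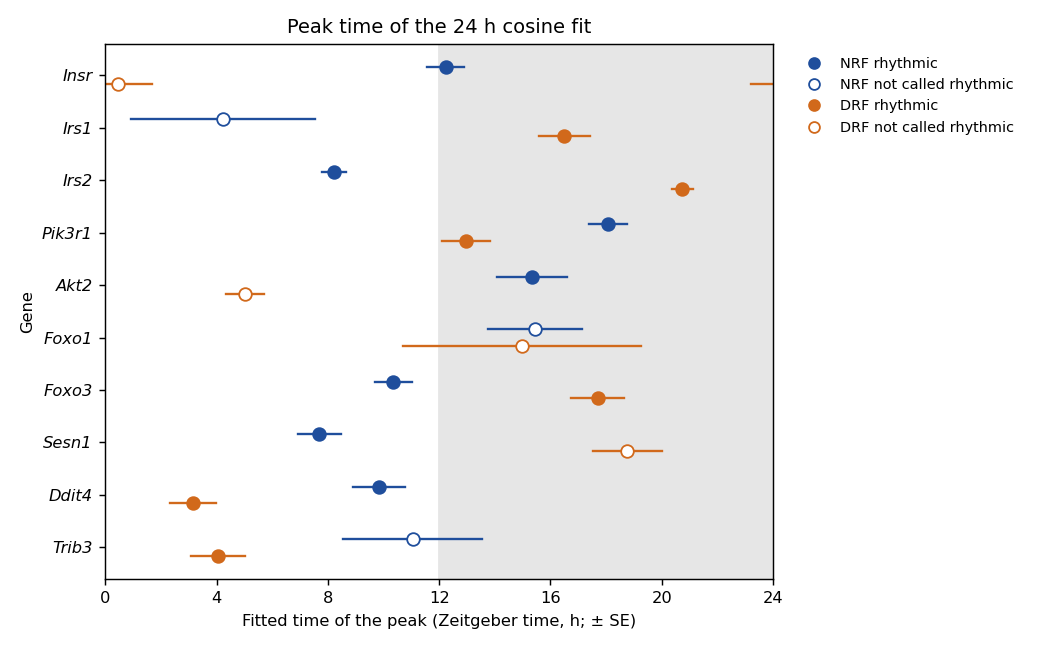
Fitted time of the peak of a 24 h cosine (Zeitgeber time, h) for each gene under NRF (blue) and DRF (orange), with bars of 1 SE and the dark phase in grey. Filled points were called rhythmic. Irs2 moved from ZT8.22 to ZT20.75, whereas Pik3r1, Foxo3 and Ddit4 moved by 5.11 to 7.35 h.

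The shifts were not tested against each other. The interval for Irs2 (10.3 to 12.6 h) lay above those for Pik3r1, Ddit4 and Foxo3, and the Pik3r1 interval lay below those for Insr, Akt2 and Sesn1. The intervals for Ddit4 and Foxo3 overlapped those for Insr, Akt2 and Sesn1. The intervals for Insr (11.8 h, 95% interval 8.98 to 14.6 h), Irs2, Akt2 (10.3 h, 7.45 to 13.2 h) and Sesn1 held 12 h, the full exchange of feeding times, and not 0. Those for Pik3r1, Ddit4 and Foxo3 held neither. Pik3r1 and Ddit4 peaked earlier under DRF and Foxo3 later. Insr, Akt2 and Sesn1 were not called rhythmic under DRF (rhythm test adjusted p = 1, 0.37 and 0.68), and Sesn1 did not pass limma's F test there either (adjusted p = 0.089), so their DRF peak times rest on weak or uncalled rhythms. The intervals of Irs1 (11.7 h, 4.83 to 18.6 h) and Trib3 (7.00 h, 1.62 to 12.4 h) were wide, since neither was rhythmic under NRF. These intervals are not adjusted for the number of genes.

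At the same clock time, 21 of 70 member contrasts passed. By time point, DRF and NRF differed for 2 of 10 members at ZT0 (10.5% of all genes passed), 6 at ZT4 (19.5%), 4 at ZT8 (16.5%), 4 at ZT12 (16.1%), 2 at ZT16 (9.98%), 2 at ZT20 (13.1%) and 1 at ZT24 (11.3%). ZT4 therefore held the most calls, with Insr and Akt2 higher and Irs1, Irs2, Foxo3 and Sesn1 lower under DRF (10.4% of all genes higher and 9.06% lower). In those 6 genes the 4 DRF mice did not overlap the 4 NRF mice, which was so for 24.4% of all genes at ZT4. By total scaling Foxo1 took the place of Insr among the 6 (26.4% of all genes). At ZT12, all 4 calls (Insr, Irs2, Foxo3 and Ddit4) were lower under DRF (7.37% of all genes lower and 8.76% higher), again without overlap, as in 21.7% of all genes. The calls of Akt2 at ZT16 (-0.49 ± 0.16, limma adjusted p = 0.040) and of Foxo3 at ZT20 (0.31 ± 0.10, limma adjusted p = 0.033) were each lost without any of 6 libraries of their groups (limma adjusted p up to 0.13 and 0.12), and the second also by total scaling (limma adjusted p = 0.31), by which Akt2 at ZT20 and Pik3r1 at ZT24 were gained.

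When groups were matched by place in the feeding cycle, 12 h apart, 6 of 60 member contrasts passed. These contrasts and those at the same clock time use the same mice, so the values stand side by side and the counts are not independent. Between DRF ZT8 and NRF ZT20 no member passed (limma, against 1.05% of all genes), 2 having an unadjusted p under 0.05 (Foxo3 and Ddit4, against 13.5% of all genes), and Irs2 was 15.7 ± 3.01 CPM in the first and 15.8 ± 3.49 CPM in the second (SD, n = 4 each). At the start of feeding, DRF ZT0 and ZT24 together had less Insr (-0.26 ± 0.08, limma adjusted p = 0.042) and Pik3r1 (-0.70 ± 0.20, limma adjusted p = 0.022) than NRF ZT12, 2 of 10 against 5.5% of all genes. The Insr call was lost without any of 10 libraries (limma adjusted p up to 0.14) and the Pik3r1 call without NRF ZT12 replicate 1, 2 or 4 (up to 0.091). At DRF ZT4 against NRF ZT16, Akt2 was higher (0.55 ± 0.16, limma adjusted p = 0.017, 0.36 ± 0.12 by total scaling, and up to 0.082 without NRF ZT16 replicate 1 or DRF ZT4 replicate 3 or 4), and Foxo3 (-0.42 ± 0.10, limma adjusted p = 0.0039) and Irs2 (-0.79 ± 0.28, limma adjusted p = 0.0498) were lower, 3 of 10 against 12.5%. The Irs2 call there was lost on leaving out any of 40 of the 56 libraries. At DRF ZT12 against NRF ZT0 and ZT24, Irs2 was 2.09-fold lower (-1.07 ± 0.24, limma adjusted p = 0.0064, and 0.058 without DRF ZT12 replicate 1), 1 of 10 against 3.1%. Its 4 DRF values of 11.03 to 17.1 CPM overlapped the 8 NRF values of 14.2 to 67.6 CPM. In the fasting phase, DRF ZT16 against NRF ZT4 and DRF ZT20 against NRF ZT8, no member passed in limma (10.4% and 9.68% of all genes), with 2 at an unadjusted p under 0.05 in each (Foxo3 and Trib3, and Pik3r1 and Trib3, against 23.9% and 22.9% of all genes). Without the pair that stood apart, 13 of 60 aligned contrasts passed, and calls appeared in the fasting phase too. Added there were Trib3 (-0.64 ± 0.22, limma adjusted p = 0.044) and Foxo3 (0.24 ± 0.08, limma adjusted p = 0.043) at DRF ZT16 against NRF ZT4, 2 of 10 against 14.5% of all genes. At DRF ZT20 against NRF ZT8, Pik3r1 was added (0.66 ± 0.21, limma adjusted p = 0.032), 1 of 10 against 13.8%, so these counts were near background. At DRF ZT4 against NRF ZT16, Foxo1 (-0.30 ± 0.10, limma adjusted p = 0.041) and Pik3r1 (-0.63 ± 0.21, limma adjusted p = 0.035) made 5 of 10 against 17% of all genes. Pik3r1 at DRF ZT12 against NRF ZT0 and ZT24 (0.61 ± 0.18, limma adjusted p = 0.040) made 2 against 5.36%, and Foxo3 at DRF ZT0 and ZT24 against NRF ZT12 (-0.32 ± 0.07, limma adjusted p = 0.0031) made 3 against 8.38%. Between DRF ZT8 and NRF ZT20 the count stayed at 0 in limma (1.04% of all genes), and Foxo3 passed there without DRF ZT8 replicate 3 alone (limma adjusted p = 0.043). By total scaling 14 of 60 passed, 5 of them at DRF ZT4 against NRF ZT16 (12.9% of all genes) and 5 at DRF ZT20 against NRF ZT8 (14.7%), where Akt2 (-0.53 ± 0.12, limma adjusted p = 0.0018), Insr, Sesn1, Foxo3 and Trib3 were lower under DRF.

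**Figure D4:**
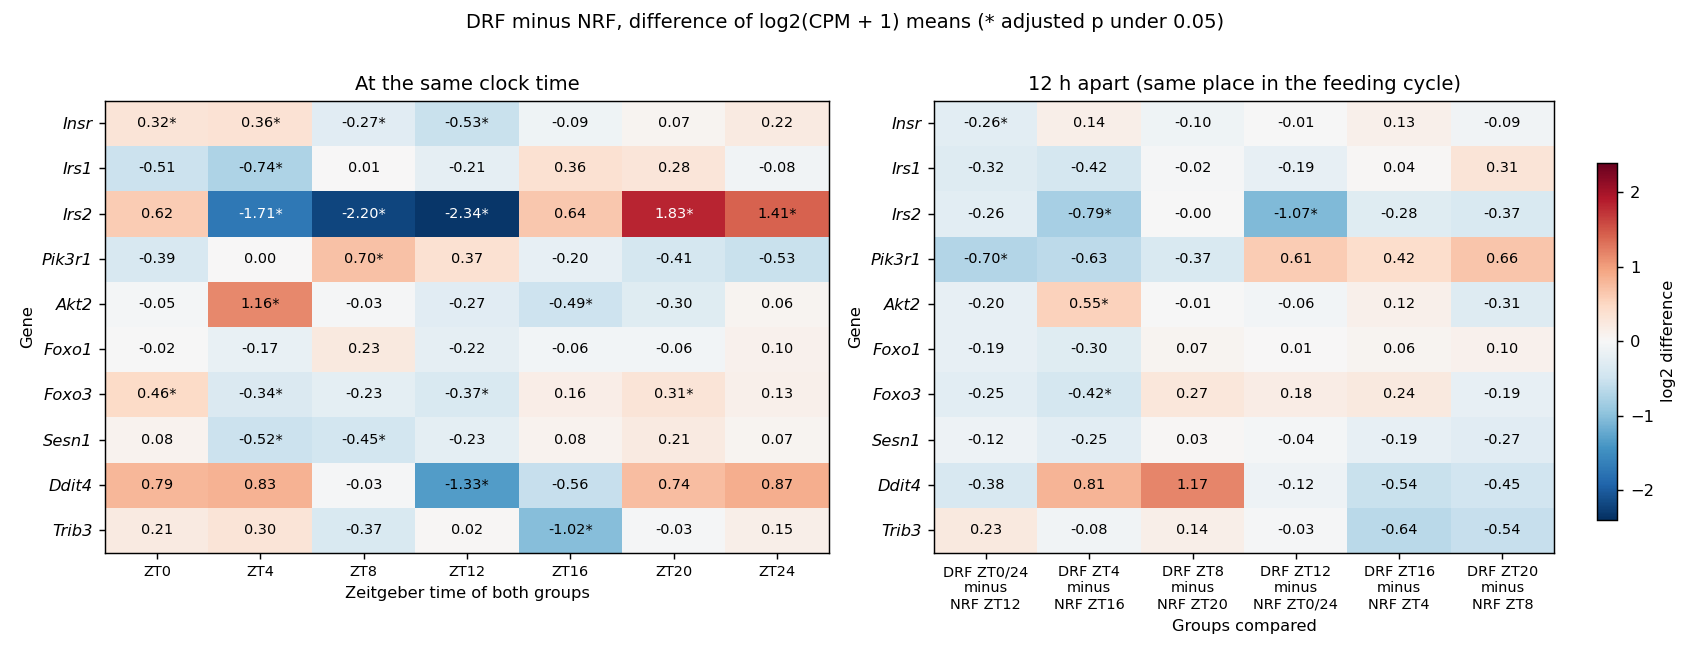
Difference of mean log2(CPM + 1), DRF minus NRF, for each gene (rows) at the same Zeitgeber time (left) and between groups 12 h apart (right). Stars mark an adjusted p under 0.05. Irs2 runs from -2.34 at ZT12 to 1.83 at ZT20 on the left and from -1.07 to near 0 on the right.

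Counted over the feeding contrasts, 4 of 10 members passed under NRF (Pik3r1 higher, and Irs2, Foxo3 and Sesn1 lower in fed mice), against 23.0% of all genes (11.8% higher and 11.2% lower) and 39.3% of those above the level filter. Without the pair that stood apart, Akt2 made it 5 of 10 against 26.7%. Under DRF, 6 of 10 passed (Akt2, Ddit4 and Trib3 higher, and Irs1, Irs2 and Foxo3 lower), against 18.2% (9.19% higher and 8.96% lower) and 32.2%. The NRF count was near the share of genes above the filter. The median difference over the members was -0.11 under NRF and -0.12 under DRF, against -0.01 and 0.00 over all genes. By total scaling every member's NRF difference was lower. Irs1 and Trib3, the members on either side of the NRF median, stood at -0.27 and -0.18 instead of -0.15 and -0.07. The NRF median over all genes was then -0.04. Irs2 and Foxo3 were lower in fed mice under both regimens, as were 3.15% of all genes. The regimens differed in the contrast for Pik3r1 and Ddit4, 2 of 10 against 12.2% of all genes and 22.3% of those above the filter, a count near background, and without the pair that stood apart also for Akt2 (0.46 ± 0.14, limma adjusted p = 0.019) and Trib3, 4 of 10 against 14.4%. By total scaling the same genes passed, Akt2 at 0.51 ± 0.12 (limma adjusted p = 0.0019), 4 of 10 against 14.7%. As built, this difference is also that of light minus dark times over both regimens, here and in the lists below.

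The members were set beside 6 lists of related genes, which share some genes with one another. Their counts in the feeding contrasts stand beside 23.0% (NRF) and 18.2% (DRF) of all genes, and 39.3% and 32.2% of genes above the level filter. Without the pair of libraries that stood apart, the shares of all genes were 26.7% and 20.7%, and the counts given for that setting stand beside these. By total scaling the shares were 25.7% and 16.2%. Of 26 FOXO family and FOXO-responsive genes, 14 passed the feeding contrast under NRF, 11 of them lower in fed mice, and 15 under DRF, 12 of them lower. The median was -0.25 under NRF and -0.29 under DRF, and without the 5 members in the list it was -0.25 and -0.31 over 21 genes. In this list the same counts in each regimen were found without the pair of libraries that stood apart, whereas counts of the other 5 lists moved. Lower in fed mice under both were 8 genes of the list, as were 3.15% of all genes. Among them were Txnip, which restrains glucose uptake (-1.09 ± 0.15 and -1.81 ± 0.15, limma adjusted p = 1.6e-07 and 3.1e-12), and the transcriptional regulator Cited2 (-0.63 ± 0.16 and -0.87 ± 0.16, limma adjusted p = 0.0029 and 8.1e-05). Sesn3, also among the 8, lost its DRF call by total scaling (-0.30 ± 0.14, limma adjusted p = 0.16). Ccng2 and Klf15, lower under DRF, gained NRF calls in that setting (limma adjusted p = 0.015 and 0.032). Higher in fed mice under both, as were 4.21% of all genes, were Gadd45a, a growth arrest gene (1.13 ± 0.26 and 1.94 ± 0.26), and the repressor Bcl6 (1.32 ± 0.29 and 1.37 ± 0.29), which are FOXO targets by the list. Txnip alone in this list differed between the regimens (-0.71 ± 0.21, limma adjusted p = 0.018, and 0.079 by total scaling). By total scaling 16 genes passed under NRF (13 lower) and 13 under DRF (10 lower). Members of the list thus went both ways, mostly down.

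Among 14 receptor and adaptor genes, 4 passed under NRF (3 higher) and 6 under DRF (4 higher), with medians of -0.03 and 0.18. The NRF count lay between the share of all genes and that of genes above the filter, and without the pair that stood apart 8 passed under DRF (5 higher). Ptpn1, the phosphatase that switches off the receptor, was higher in fed mice under both (0.19 ± 0.04 and 0.31 ± 0.04, limma adjusted p = 1.5e-04 and 4.0e-08), the NRF call being lost by total scaling (0.07 ± 0.05, limma adjusted p = 0.35), by which 1 of the 4 NRF calls in this list was higher. Sh2b2, an adaptor of the receptor, was higher in fed mice under NRF (1.68 ± 0.21, limma adjusted p = 2.7e-08), while its DRF difference was 0.45 ± 0.21 (limma adjusted p = 0.14), and the regimens differed (-1.23 ± 0.29, limma adjusted p = 0.0036). Its difference had the sign of that in Pik3r1. Socs1, a feedback inhibitor, differed the other way (0.77 ± 0.21, limma adjusted p = 0.011).

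Among 16 genes of PI3K and AKT, 8 passed under NRF (5 higher) and 7 under DRF (5 higher), with medians of 0.12 and 0.03. Without the pair, 10 passed under NRF (6 higher) and 8 under DRF (5 higher). By total scaling 3 of 8 were higher under NRF and the median was near 0. The catalytic subunit gene Pik3cb was higher in fed mice under both (0.51 ± 0.11 and 0.64 ± 0.11) and Pik3ca lower under both (-0.22 ± 0.06 and -0.36 ± 0.06). Pik3r2, the p85-beta gene, did not follow Pik3r1. It was higher in fed mice by 0.12 ± 0.05 under NRF (0.00 ± 0.06 by total scaling, limma adjusted p = 0.98) and 0.72 ± 0.05 under DRF, and the regimens differed by 0.60 ± 0.07 (limma adjusted p = 1.1e-08). Akt1 rose in fed mice under DRF by 0.61 ± 0.06, beside 0.11 ± 0.06 under NRF, and the regimens differed (0.50 ± 0.08, limma adjusted p = 1.3e-05).

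Of 16 genes downstream of AKT, 6 passed under NRF (5 higher) and 5 under DRF (2 higher), with medians of 0.06 and -0.02. Both counts were near the shares of genes above the filter. Without the pair, 8 passed under NRF (7 higher) and 6 under DRF (3 higher), and the DRF median turned to 0.05. By total scaling 4 of 8 were higher under NRF and 4 of 6 under DRF, and the NRF median turned to -0.06. Slc2a4, which encodes the insulin-responsive glucose transporter GLUT4, was 226 ± 109 CPM at NRF ZT8 and 644 ± 62.2 CPM at NRF ZT20 (SD, n = 4). Over both fed and both fasted times its difference was 1.38 ± 0.23 under NRF (limma adjusted p = 6.9e-06) and -0.07 ± 0.23 under DRF (limma adjusted p = 0.90), and the regimens differed (-1.44 ± 0.32, limma adjusted p = 0.0016). Pde3b, the phosphodiesterase through which insulin restrains lipolysis, was lower in fed mice under both, by 0.57 ± 0.13 and 0.95 ± 0.13.

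The other 2 lists hold genes that respond to inputs shared with Ddit4 and Trib3, and the lists were not tested against each other. Of 16 ATF4-responsive genes, 7 passed under NRF (5 higher) and 6 under DRF (5 higher), and Atf4 itself was higher in fed mice under both (0.78 ± 0.12 and 1.02 ± 0.12), as was the asparagine synthetase gene Asns (0.57 ± 0.11 and 0.43 ± 0.11). Ppp1r15a, which helps to end the stress response, was higher under both as well (0.38 ± 0.12 and 0.49 ± 0.12), under NRF not by total scaling (limma adjusted p = 0.13). Vldlr, a lipoprotein receptor gene, was lower in fed mice under both (-0.37 ± 0.09 and -0.43 ± 0.09, limma adjusted p = 0.0024 and 5.5e-04). Both counts were near the shares of genes above the filter. Without the pair, 8 and 7 genes of this list passed, and by total scaling 3 of 7 were higher under NRF and 6 of 7 under DRF. Of 14 glucocorticoid-responsive genes, 3 passed under NRF, all higher in fed mice, and 7 under DRF, 6 of them lower. The NRF count was no higher than the share of all genes. Without the pair, 4 passed under NRF and 6 under DRF, 5 of them lower. The median of all 14 was 0.18 (NRF) and -0.35 (DRF). By total scaling 4 passed under NRF, 3 of them higher and Ddit4 lower, and 6 under DRF, 5 of them lower. The medians were then 0.06 and -0.33. Tsc22d3, a standard glucocorticoid target, differed by -1.99 ± 0.27 between the contrasts (limma adjusted p = 8.2e-07). Ddit4, in both lists, was the only glucocorticoid-responsive gene higher in fed mice under DRF among those that passed. Between the contrasts, 5 of the 14 differed (against 12.2% of all genes, and 6 of 14 without the pair), Ddit4 with a positive difference and Fkbp5, Cdkn1a, Tsc22d3 and Mt1 with a negative one. Fkbp5 and Cdkn1a fall outside the naming rule, which averages the regimens, and were named after their values were seen. Fkbp5, a chaperone of the glucocorticoid receptor, was higher in fed mice under NRF (1.64 ± 0.25) and lower under DRF (-1.90 ± 0.25), a difference of -3.54 ± 0.36 (limma adjusted p = 9.7e-10). Cdkn1a, a cell cycle inhibitor gene, was also higher under NRF (1.01 ± 0.25) and lower under DRF (-1.02 ± 0.25), a difference of -2.03 ± 0.35 (limma adjusted p = 6.7e-05). The metallothionein gene Mt1 differed by -1.41 ± 0.30 (limma adjusted p = 0.0011), and the Ddit4 difference was 1.48. Zbtb16, a zinc finger gene, was lower in fed mice under DRF (-1.49 ± 0.29, limma adjusted p = 1.8e-04) beside -0.37 ± 0.29 under NRF, and the regimens differed by -1.11 ± 0.42 (limma adjusted p = 0.072). Dusp1, a phosphatase gene, stood at 0.23 ± 0.21 and 0.21 ± 0.21 and differed by -0.02 ± 0.29 (limma adjusted p = 0.98).

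**Figure D5:**
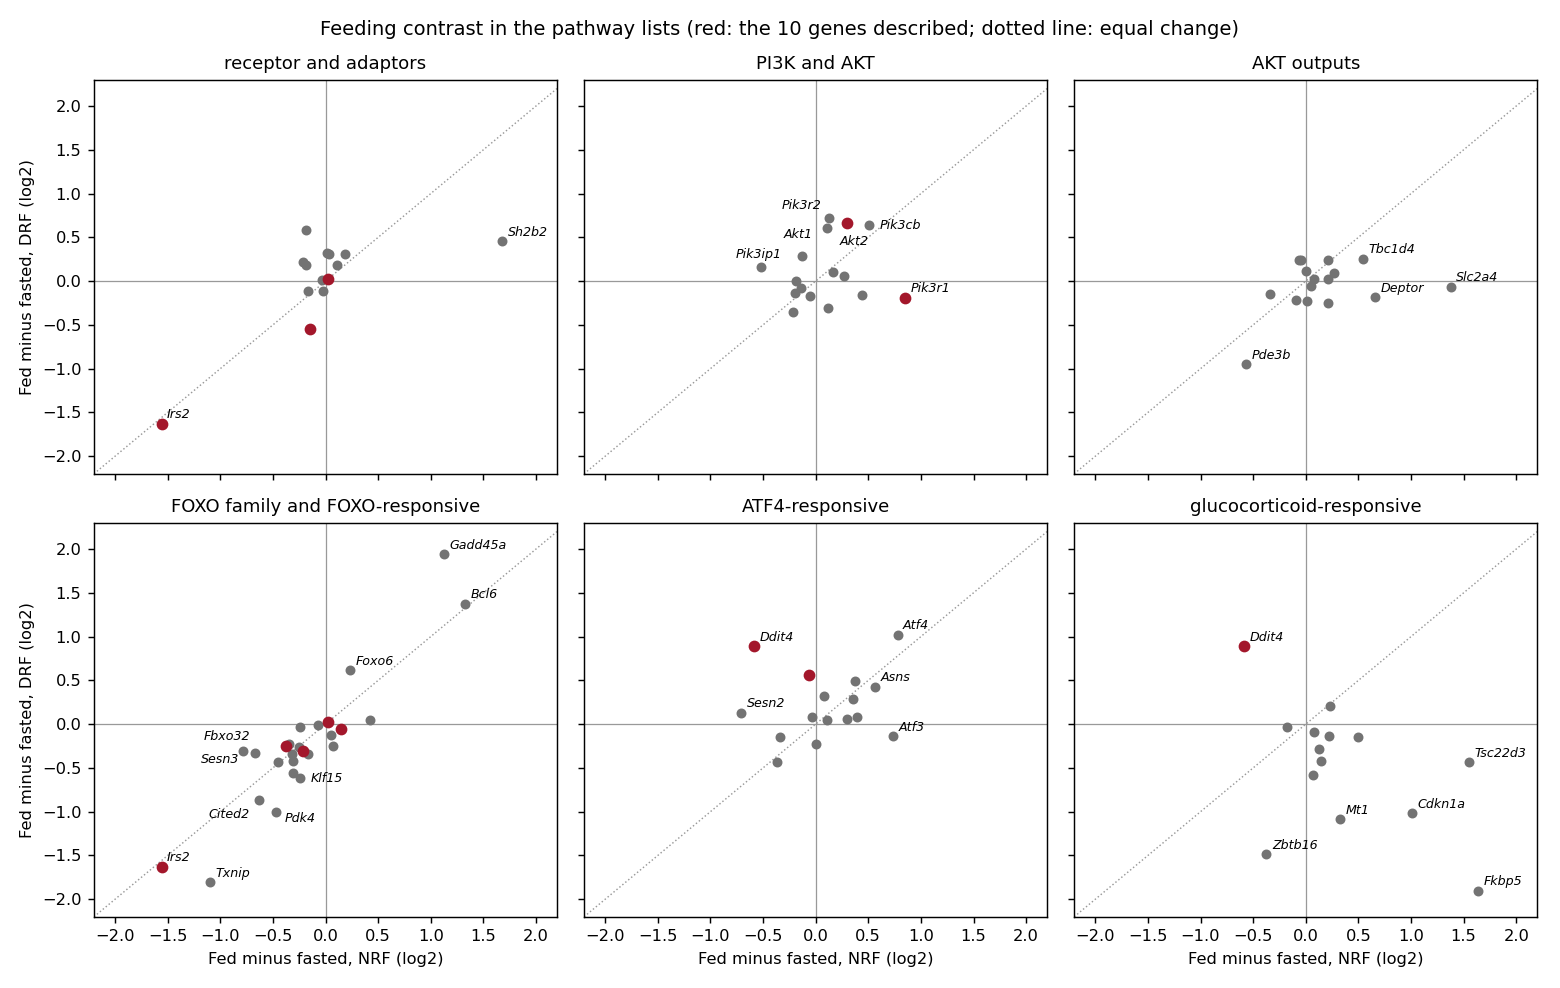
Fed minus fasted difference of mean log2(CPM + 1) under NRF (horizontal) and DRF (vertical) for the genes of 6 lists, with the 10 members in red and a dotted line of equal change. FOXO-responsive genes lie mostly in the lower left (medians -0.25 and -0.29), and Ddit4 lies at the upper left (-0.59 and 0.89).

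Over the 14 group means, the closest pair of members was Irs2 and Sesn1 (Pearson r = 0.82), followed by Foxo3 with Sesn1 (0.68) and with Irs2 (0.64). The most opposed pair was Irs1 and Akt2 (-0.63). These correlations describe groups that share libraries and regimens and carry no test. Among 14107 genes above the level filter, the profile most like Irs2 was that of Josd1 (r = 0.97), then Zbtb5 (0.97) and March6 (0.95). For Foxo3 it was Slf2 (0.98), for Sesn1 Egf (0.94), for Akt2 after Akt2-ps Cdc73 (0.92), for Ddit4 Hdac3 (0.91), for Pik3r1 Cd200 (0.91), for Irs1 Ccl9 (0.89), for Insr Negr1 (0.88) and for Trib3 Tigd2 (0.85). Foxo1 had no near likeness, the highest being Gm14226 (0.73).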

How the data were processed

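VAT was profiled in 56 mice by polyA RNA-seq (NEBNext Ultra, which does not mark strand). Per the processing notes, reads were aligned to mm10 with HISAT2 (version 2.0.5) and counted with featureCounts (version 1.5.0-p3). The deposited values are named TPM but behave as a score: log2(CPM + 1) divided by exon length, scaled per library. With GENCODE M21 exon lengths (GRCm38), whole reads were recovered for 99.9915% of 1262086 values of up to 10000 reads (within 0.02 of a whole number). CPM was these reads divided by the library size that the deposited score implies (31.8 to 47.3 megareads, 0.840 to 1.28 times the recovered reads). How the authors set that size is not given in the sources used here. Exon length came from the reference for 25053 genes and from the values for 881, and 5 genes were too abundant to test, though their reads enter the totals. Groups came from the labels, with ZT0 and ZT24 kept apart.

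Rhythms were tested on the deposited score with JTK_CYCLE and Lomb-Scargle (period 24 h, lags every 2 h), combined by Fisher's method, and contrasts with limma (version 3.58.1, R 4.3.3) on log2(CPM + 1), in which a pseudocount of 1 CPM understates the change of low genes. Both were adjusted over 25939 genes by the Benjamini-Hochberg method at 0.05 and tested on simulated data. Peak times and their intervals came from a cosine fit. Python (version 3.11.15) drew the figures. The members and lists were chosen with earlier results of these data known. Of each list, up to 4 other genes with the largest mean contrast were named, and up to 3 nearest profiles per member. Mt2 of the glucocorticoid list, at a mean of 0.75 CPM, was not named. Its mean contrast (0.07 ± 0.19 under NRF and -0.58 ± 0.19 under DRF) was larger in size than that of Dusp1. Alternatives were pseudocount, level filter, median-of-ratios scaling, scaling by total reads (added after seeing the data), unit, voom, a replicate block, each replicate number left out, the pair of libraries that stood apart left out, ZT24 left out and other rhythm tests.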

Additional observations from a re-analysis of the deposited data

Results flagged for a closer look

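Of 140 groups of 4 mice (10 genes by 14 groups), 9 held a mouse farther from the other 3 than Dixon's 95% criterion allows, and chance gives about 1 in 20. Irs2 was 54.3 CPM in NRF ZT16 replicate 3 against 25.1 to 27.5 CPM in the other mice, and 37.7 CPM in DRF ZT16 replicate 1 against 53.0 to 55.8 CPM. Ddit4 was 59.8 CPM in DRF ZT16 replicate 1 against 13.2 to 14.8 CPM. Trib3 was 6.36 CPM in DRF ZT16 replicate 2 against 4.06 to 4.44 CPM. Insr was 156.8 CPM in NRF ZT4 replicate 1 against 140.1 to 142.8 CPM, and Akt2 was 364.6 CPM in NRF ZT8 replicate 1 against 438.7 to 452.3 CPM. Irs1 was 28.2 CPM in DRF ZT24 replicate 3 against 41.4 to 43.7 CPM. Foxo1 was 68.6 CPM in NRF ZT12 replicate 2 against 83.5 to 85.4 CPM, and Sesn1 was 57.8 CPM in NRF ZT0 replicate 1 against 40.4 to 42.6 CPM. DRF ZT16 replicate 1 thus held both the low Irs2 value and the high Ddit4 value of its group.

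The fed minus fasted contrast differed between the regimens for Pik3r1 (-1.04, DRF minus NRF, limma adjusted p = 0.0012) and for Ddit4 (1.48, limma adjusted p = 0.0068). No cause was tested for any of these values.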

How the results depend on the processing

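With the pair of libraries that stood apart left out, 4 members instead of 2 differed between regimens in the feeding contrast (14.4% of all genes instead of 12.2%), and 13 instead of 6 aligned contrasts passed. Among genes above the level filter, 2 members instead of 1 differed in mean level (38.2% instead of 21.7%) and 11 aligned contrasts passed. By total reads per library, 4 members differed in mean level, 4 in the feeding contrast between regimens and 14 aligned contrasts passed. The other counts of members called lay within 1.5 times the reported ones under the remaining alternatives, and no call changed direction, although some differences that passed in neither fit changed sign. Leaving out each replicate number in turn gave 3 to 6 rhythmic members under NRF, 2 to 4 under DRF, 7 to 9 that differed in rhythm, 1 in mean level and 0 in amplitude. It gave 2 to 6 in the feeding contrast under NRF, 4 to 6 under DRF and 0 to 2 in their difference, 12 to 19 calls at the same clock time (21 reported) and 2 to 5 aligned. Over all genes, the rhythmic count fell from 6940 to 4364 under NRF without the mice numbered 2, and from 3895 to 1930 under DRF without those numbered 3. By log2(CPM + 1), Foxo3 was not called rhythmic under DRF (rhythm test adjusted p = 0.34) and Akt2 was (0.016). Without ZT24, Ddit4 under NRF (0.12) and Foxo3 and Trib3 under DRF (0.088 and 0.054) lost their calls. The causes were not tested. The replicate numbers were not treated as pairs of mice. In deviations from the group means, 9 of 28 pairs of the same number and time point correlated above 0.1 (range -0.31 to 0.34). An NRF library correlated best with the DRF library of its own number in 5 of 28 cases. Over all libraries of different groups, the median correlation was 0.04 for the same number and -0.013 for other numbers. With the number as a replicate block, 5 members passed under NRF in the feeding contrast (Akt2 added, limma adjusted p = 0.035) and 5 aligned contrasts passed (Irs2 at DRF ZT4 lost, 0.055). No limit of detection by abundance was computed.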
